A study of Homo sapiens with 6 samples.

Results

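The genes described here are 9 enzymes of the mevalonate pathway, read in order from acetyl-CoA to squalene: ACAT2, HMGCS1, MVK, PMVK, MVD, IDI1, FDPS, GGPS1 and FDFT1. They were taken by symbol from the 40205 gene symbols of the count table, and all 9 were found. RNA-seq was performed on cultures labelled HepG2, a human hepatoma line, in serum-containing medium. The 3 samples of the control group (Control-1 to Control-3) are labelled as controls, with no exposure or dose given. The 3 of the CLs-treated group (CLs-1 to CLs-3) were exposed to cationic liposomes (CLs) for 24 h. The labels give a dose of 120 μM, and the study's text gives the same figure in μM in one place and in μg/ml in others. By the study's methods the liposomes were made from the cationic lipid DOTAP, cholesterol and a PEG-bearing lipid, so the treated cells also received cholesterol. The study calls the 6 samples independent without saying whether those of a group came from separate cultures, and the p-values measure the spread between these samples.

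The mevalonate pathway builds isoprenoids from acetyl-CoA. Acetyl-CoA units are joined to HMG-CoA and converted to mevalonate, which is phosphorylated and decarboxylated to isopentenyl diphosphate, and these units are then linked into farnesyl diphosphate. Farnesyl diphosphate is a branch point: it is joined to squalene on the way to cholesterol, or extended for protein prenylation and other products. In liver cells many of these genes are known to be controlled together by SREBP transcription factors, which are held inactive when the endoplasmic reticulum is rich in sterol.

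Between 11418527 and 13998946 reads per library were counted on genes, and the members had between 194 and 3739 counts in a library. None of the 13 hepatocyte markers examined, among them ALB, AFP and APOA1, had enough reads to be tested. Their summed counts were 6, 14 and 17 in the control libraries, 127 in CLs-1, and 8 and 15 in CLs-2 and CLs-3. ALB had 0 counts in every library but CLs-1, where it had 8, and 3 counts correspond to 0.214 to 0.263 CPM (reads of a gene scaled to a common library total). Of 5 mesenchymal genes, the collagen COL3A1 had between 7456 and 11358 counts in every library and COL1A1 between 764 and 2472, while COL1A2 and THY1 had 1044 and 58 in CLs-1 and at most 2 elsewhere. The defining hepatocyte markers were thus at or near 0 in cultures labelled HepG2, and the part of this in the results below was not tested. CLs-1 stood apart: 3 globin genes had 476 counts in sum there and at most 4 elsewhere, and 4 steroidogenic genes had 466 there and at most 32 elsewhere. Among the control libraries, Control-3 stood apart. The chi-square of counts per degree of freedom was 8.26 between Control-1 and Control-2, against 34.98 and 19.96 for the pairs with Control-3.

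In the CLs-treated group, 8 of the 9 genes had a fitted log2 fold change below 0, with PMVK as the exception. The values ranged from -0.87 for MVD to 0.11 for PMVK. The median over the 9 genes was -0.40, beside 0.01 over all 15047 genes tested. MVD, MVK and FDFT1 had the largest differences, while PMVK and GGPS1 had nearly equal means in both groups. SE is the standard error of a log2 fold change. In edgeR (quasi-likelihood F test, Benjamini-Hochberg adjustment over all genes tested), 0 of the 9 passed the criteria of an adjusted p-value under 0.05 with a fold change above 1.5 or below 0.67. Of all genes tested, 0.0731% were called lower and 0.0133% higher by this rule. At an unadjusted p-value under 0.05, 6 of the 9 were lower (ACAT2, MVK, MVD, IDI1, FDPS and FDFT1) and 0 were higher, against 3.62% and 2.19% of all genes. In DESeq2 the criteria were met by 3 of the 9 (MVK, MVD and FDFT1), against 0.645% of the 13950 genes with an adjusted p-value called lower and 0.108% called higher. On the 15047 genes of the edgeR fit, an alternative chosen after seeing the data, DESeq2 called 3 of the 9 as well, against 0.605% of genes called lower and 0.106% higher. In 5 of the 9 all CLs-treated samples lay below all control samples, and in 0 all lay above, a separation found in 6.18% and 5.34% of all genes tested. MVK and MVD are among the genes that the study listed as differentially expressed on these same samples, so their values here are not independent evidence. In bulk RNA, fewer cells of a type and less RNA per cell cannot be told apart.

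**Figure D1:**
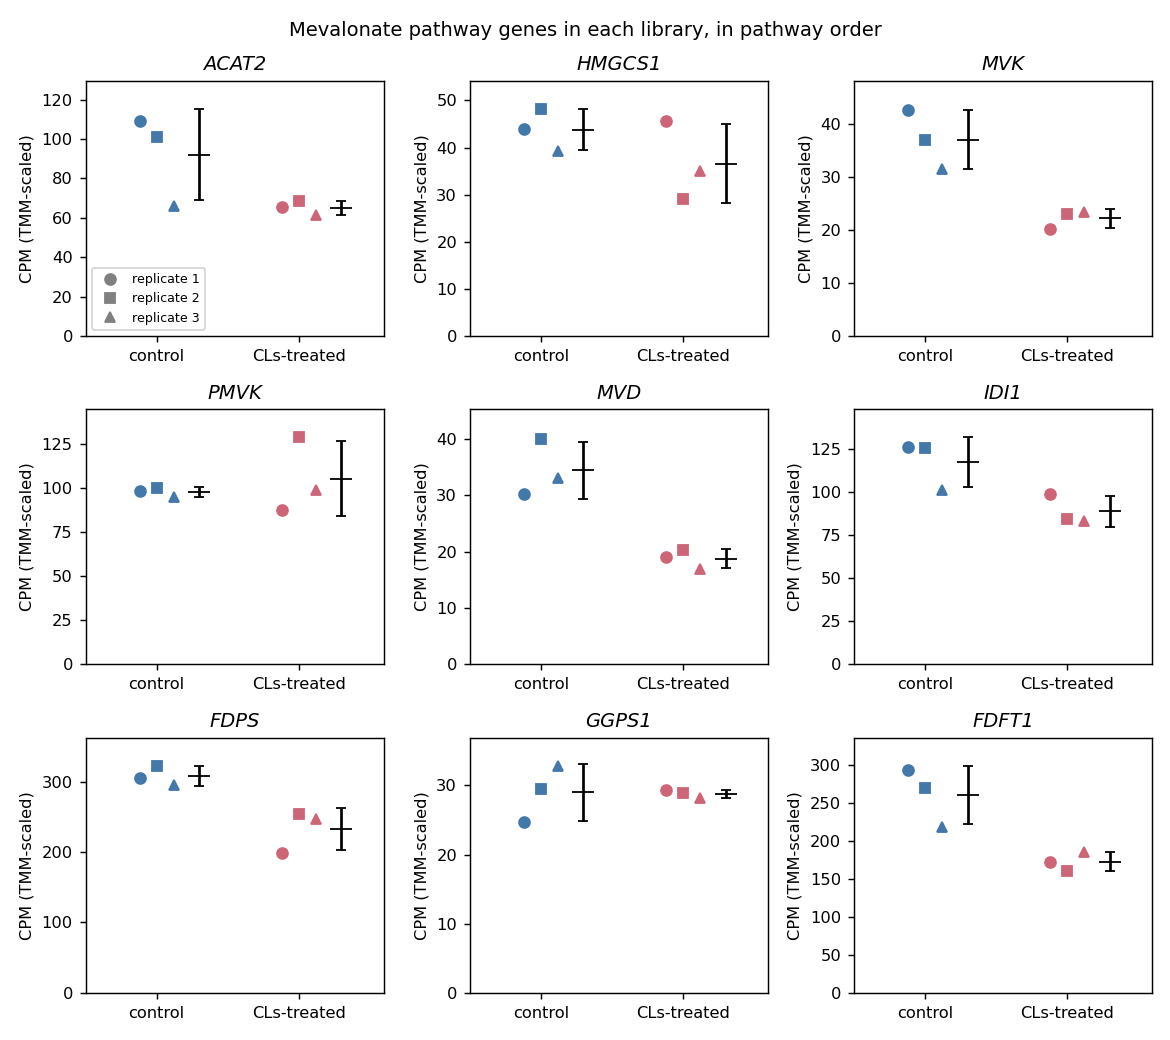
Each panel plots the TMM-scaled CPM of 1 gene (y axis, from 0) in the 3 control libraries (blue) and the 3 CLs-treated libraries (red), with the mean and SD of each group in black. MVK, MVD, IDI1, FDPS and FDFT1 show no overlap between groups, and in ACAT2 the Control-3 point, at 65.9 CPM, sits among the treated libraries.

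The entry steps differed in how clearly the groups were apart. ACAT2 encodes the cytosolic thiolase that joins acetyl-CoA units to acetoacetyl-CoA. Its CPM was 109.1, 101.1 and 65.9 in the control libraries 1 to 3 and 65.7, 68.3 and 61.3 in the treated libraries 1 to 3, the order kept for every gene. The treated libraries were close together and Control-3 lay between them, so the groups overlapped. The log2 fold change was -0.50 (SE 0.18, edgeR adjusted p = 0.653), and it was -0.69 without Control-3. HMGCS1 encodes the cytosolic synthase that makes HMG-CoA. Its CPM was 43.9, 48.2 and 39.4 in the control libraries and 45.6, 29.1 and 35.1 in the treated ones. CLs-1 lay within the control range and the other treated libraries lay below it. For HMGCS1 the log2 fold change was -0.26, with a 95% interval from -0.65 to 0.13. It was -0.45 without CLs-1 and -0.12 without CLs-2.

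The steps from mevalonate to isopentenyl diphosphate held both the largest difference and the gene with the highest log2 fold change. MVK encodes mevalonate kinase. Its CPM was 42.6, 37.0 and 31.6 in the control libraries and 20.2, 23.1 and 23.4 in the CLs-treated libraries. The highest treated library lay below the lowest control. The log2 fold change of MVK was -0.74 (SE 0.16, edgeR adjusted p = 0.180), a difference of -40.0% on the fitted scale. MVD encodes the decarboxylase that yields isopentenyl diphosphate. Its CPM was 30.3, 40.0 and 33.0 in the control libraries and 19.0, 20.3 and 17.0 in the CLs-treated libraries. Again no treated library reached a control, and the 3 treated values were close together. MVD had a fitted log2 fold change of -0.87 (SE 0.16, 95% interval from -1.23 to -0.52), and its adjusted p of 0.0974 was the lowest among the 9 genes. In DESeq2's Wald test MVK and MVD passed, with adjusted p-values of 0.0153 and 0.00163. Over 15 alternatives, leaving out single samples included, the adjusted p ranged from 0.0153 to 0.605 for MVK and from 0.00152 to 0.505 for MVD. Both highest values came from leaving out Control-2. With every sample kept, the highest were 0.217 for MVK and 0.128 for MVD, in edgeR with library size only.

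PMVK encodes phosphomevalonate kinase, which acts between these enzymes. Its CPM was 98.5, 100.3 and 95.2 in the control libraries and 88.0, 129.4 and 99.4 in the treated libraries. The control libraries were nearly alike (98.0 ± 2.61, SD, n = 3), and the treated ones lay on both sides of them (105.6 ± 21.4, SD, n = 3). For PMVK the log2 fold change was 0.11 with a 95% interval from -0.23 to 0.45, and without CLs-2 it was -0.06. The interval thus does not reach the lower fold criterion of 0.67, nor the upper one of 1.5. Ratios of counts within a library do not depend on the scaling between libraries. These ratios were chosen after the values were seen and are given as a description. MVK had 0.433, 0.368 and 0.332 counts per count of PMVK in the control libraries and 0.230, 0.178 and 0.235 in the CLs-treated libraries. For MVD the ratio to PMVK averaged 0.351 ± 0.0455 (SD, n = 3) without CLs and 0.182 ± 0.0310 (SD, n = 3) with them. Neither ratio overlapped between the groups.

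**Figure D2:**
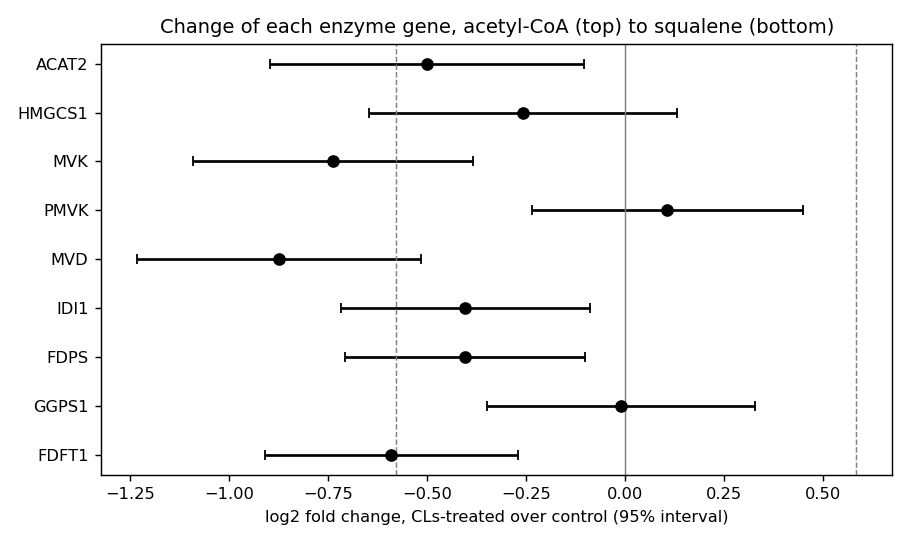
The x axis gives the log2 fold change of the CLs-treated over the control group for each gene, with its 95% interval from the edgeR fit, in pathway order from top to bottom. Dashed lines mark folds of 0.67 and 1.5. The intervals of HMGCS1, PMVK and GGPS1 include 0, and those of the other 6 genes lie below it.

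Promoter sequences of the members were searched for short motifs, and 4 are printed. These 4 were chosen after the values were seen, to show members that lay lower in the treated libraries beside PMVK, which did not. A contrast between them therefore reflects this choice, and a link of the letters to the differences was not tested. Windows from 250 bases before to 50 bases after an annotated transcription start were taken from RefSeq (GRCh38.p14). The 12 windows read belong to 7 of the 9 members. ACAT2 had no window in the set used, and any window of FDFT1 was left out of those read. The windows of MVK (chr12:109573544-109573843, plus strand), PMVK (chr1:154936670-154936969, minus strand), MVD (chr16:88663042-88663341, minus strand) and FDPS (chr1:155308616-155308915, plus strand) are printed 5′ to 3′ along the gene. Capitals mark CCAAT, the letters bound by the factor NF-Y, on either strand (CCAAT or ATTGG).
MVK: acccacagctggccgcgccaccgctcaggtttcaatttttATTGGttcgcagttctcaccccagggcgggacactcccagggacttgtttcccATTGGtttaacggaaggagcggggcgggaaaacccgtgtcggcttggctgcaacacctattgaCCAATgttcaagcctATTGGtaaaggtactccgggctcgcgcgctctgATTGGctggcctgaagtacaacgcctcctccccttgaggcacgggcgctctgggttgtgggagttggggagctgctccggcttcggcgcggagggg
PMVK: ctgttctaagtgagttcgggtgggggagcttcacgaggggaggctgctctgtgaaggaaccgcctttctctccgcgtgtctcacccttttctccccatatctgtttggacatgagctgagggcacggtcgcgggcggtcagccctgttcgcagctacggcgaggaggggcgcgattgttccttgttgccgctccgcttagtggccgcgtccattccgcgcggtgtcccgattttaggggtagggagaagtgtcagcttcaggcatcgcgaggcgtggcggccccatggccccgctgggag
MVD: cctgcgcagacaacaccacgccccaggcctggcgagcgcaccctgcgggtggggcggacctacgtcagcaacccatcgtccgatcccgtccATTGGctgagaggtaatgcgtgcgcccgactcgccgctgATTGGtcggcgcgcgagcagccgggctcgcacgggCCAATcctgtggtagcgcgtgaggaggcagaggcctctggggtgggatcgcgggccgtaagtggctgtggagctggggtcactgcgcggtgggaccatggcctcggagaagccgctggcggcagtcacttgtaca
FDPS: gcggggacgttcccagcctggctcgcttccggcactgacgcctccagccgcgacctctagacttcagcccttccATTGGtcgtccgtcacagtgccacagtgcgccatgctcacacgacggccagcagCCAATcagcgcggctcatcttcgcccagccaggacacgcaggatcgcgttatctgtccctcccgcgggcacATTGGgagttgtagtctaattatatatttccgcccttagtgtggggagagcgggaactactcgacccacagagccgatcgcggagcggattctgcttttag

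MVK held 5 such matches, MVD 3 and FDPS 3, and PMVK held 0. In MVD they began 159, 120 and 85 bases before the start, and in FDPS 176, 122 and 51 bases before it. Of all 35116 RefSeq windows of this length, 34.6% held at least 1 match, 10.8% at least 2 and 3.26% at least 3. Of the windows read but not printed, those of IDI1 held 3, 2 and 0 matches, those of HMGCS1 held 2 and 0, and those of GGPS1 held 1, 0 and 0. The letters TCACNCCAC, a consensus of SREBP binding, were searched on both strands and found in none of the 12 windows and in 1.13% of all windows. The GC box GGGCGG, also read on both strands, was found in 11 of the 12 windows and in 45% of all. The E-box CACGTG was in none of the 12 and in 7.26% of all. CCAAT matches did not overlap those of the other motifs in the printed windows. Some windows of the same gene overlap. A match is a run of letters, not a measured binding site. Only exact matches were searched, so a site with other letters would be missed. A window without a match is therefore not shown to lack a site.

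Downstream of isopentenyl diphosphate, IDI1 encodes the isomerase that makes dimethylallyl diphosphate. Its CPM was 126.2, 125.9 and 101.2 in the control libraries and 99.4, 84.5 and 83.1 in the CLs-treated libraries. The groups were separated by a narrow gap, between Control-3 and CLs-1. The log2 fold change of IDI1 was -0.40 (SE 0.14, edgeR adjusted p = 0.638). FDPS encodes farnesyl diphosphate synthase. Its CPM was 305.7, 322.9 and 295.5 in the control libraries and 198.3, 253.7 and 246.5 in the treated libraries. All treated libraries were lower, and CLs-1 was the lowest. The log2 fold change of FDPS was -0.40 (SE 0.14, edgeR adjusted p = 0.585), and -0.30 without CLs-1.

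Of the 9, 2 enzymes use farnesyl diphosphate at the branch point, and their difference from each other was not tested. FDFT1 encodes squalene synthase, which commits it to sterols. Its CPM was 292.9, 269.3 and 218.4 in the control libraries and 172.0, 161.0 and 185.7 in the CLs-treated libraries. No treated library reached the lowest control, Control-3. For FDFT1 the log2 fold change was -0.59 (SE 0.15, edgeR adjusted p = 0.258), and the adjusted p was 0.0270 in DESeq2's Wald test. Over the 15 alternatives it ranged from 0.0270 to 0.770. GGPS1 encodes the synthase of geranylgeranyl diphosphate, which serves protein prenylation. Its CPM was 24.7, 29.5 and 32.8 in the control libraries and 29.3, 28.9 and 28.2 in the CLs-treated libraries. All treated values lay inside the control range. GGPS1 had a fitted log2 fold change of -0.01, with a 95% interval from -0.35 to 0.33, and it turned to 0.01 when only the library size was used for scaling. Per count of FDFT1, GGPS1 had 0.0842, 0.109 and 0.150 counts in the control libraries and 0.170, 0.179 and 0.152 in the CLs-treated libraries. This ratio did not overlap between the groups, though Control-3 and CLs-3 were nearly equal, and it was also chosen after the values were seen.

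An exact permutation test of CPM (two-sided) has a smallest possible p of 0.10 with 3 samples in each group. MVK, MVD, IDI1, FDPS and FDFT1 each gave this smallest p, as any gene with groups fully apart does. It thus restates their separation, found with the treated samples lower in 6.18% and higher in 5.34% of all genes tested. With library size only as the scaling, the groups of IDI1 overlapped and the other 4 stayed apart.

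The spread within groups was shared by several members. Control-3 had the lowest CPM of the control group in 7 of the 9 genes, and GGPS1 was the gene in which it was the highest. The summed CPM of the 9 genes was 1074, 1074 and 913 in the control libraries. It was 737.4, 798.3 and 779.8 in the treated libraries, so the sums did not overlap between the groups. As a share of all counts, the members took 0.105%, 0.106% and 0.0916% in the control libraries and 0.0761%, 0.0790% and 0.0779% in the CLs-treated ones. The median over the 9 genes of the log2 difference from the control mean was -0.45, -0.47 and -0.48 in the 3 CLs-treated libraries and -0.15 in Control-3. CLs-1, with its globin and steroidogenic counts, was thus close to the other treated libraries in this median, while HMGCS1 was highest and FDPS lowest there. Leaving out 1 library at a time, the median log2 fold change of the 9 genes lay between -0.50 (without Control-3) and -0.36 (without Control-1).

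**Figure D3:**
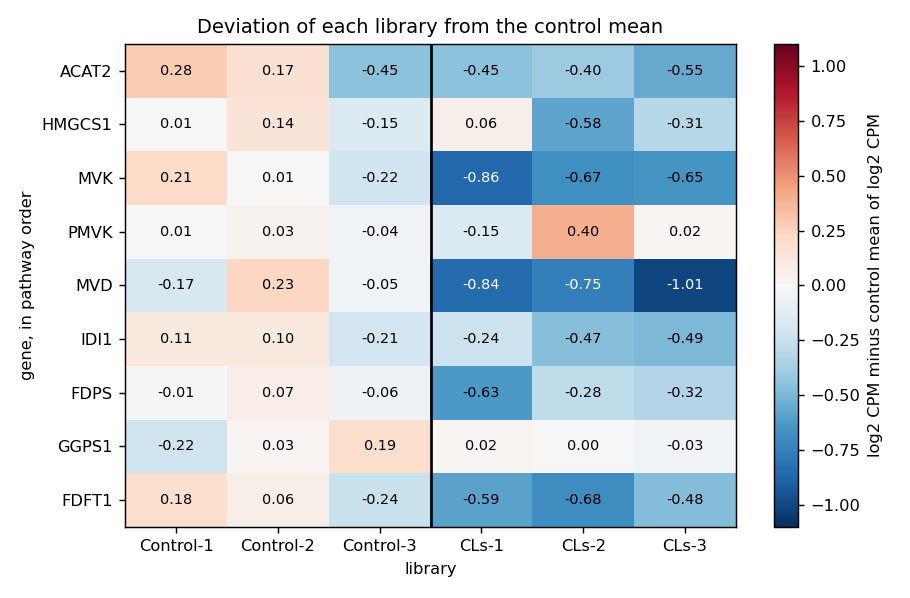
Rows are the 9 genes in pathway order and columns the 6 libraries. Colour and number give the log2 CPM minus the control mean of log2 CPM. MVK and MVD are at -0.65 or lower in every CLs-treated library, PMVK is at 0.40 in CLs-2, and ACAT2 is at -0.45 in both Control-3 and CLs-1.

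Levels were compared between genes per kb of exon, using the union of exons in GENCODE 29. In the control group FDPS was the highest at 82.8 ± 3.72 CPM per kb (SD, n = 3), followed by PMVK at 76.6 ± 2.04, by FDFT1, which ranged from 42.0 to 56.3, and by IDI1 at 27.1 ± 3.30 and ACAT2 at 21.4 ± 5.34. HMGCS1, GGPS1, MVD and MVK followed at 9.32 ± 0.938, 7.61 ± 1.08, 7.30 ± 1.06 and 5.72 ± 0.855. Each neighbouring pair among these last 4 overlapped, as did IDI1 and ACAT2, while the other neighbours did not. In the CLs-treated group PMVK, at 82.5 ± 16.7 CPM per kb, was above FDPS, at 62.6 ± 8.10, and this order held in all 3 libraries. GGPS1, at 7.56 ± 0.142, was then above MVD, at 3.98 ± 0.355, without overlap, and MVK was again the lowest at 3.43 ± 0.270. The union counts exons of all annotated transcripts, which are not all used in these cells, so the order depends on it.

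**Figure D4:**
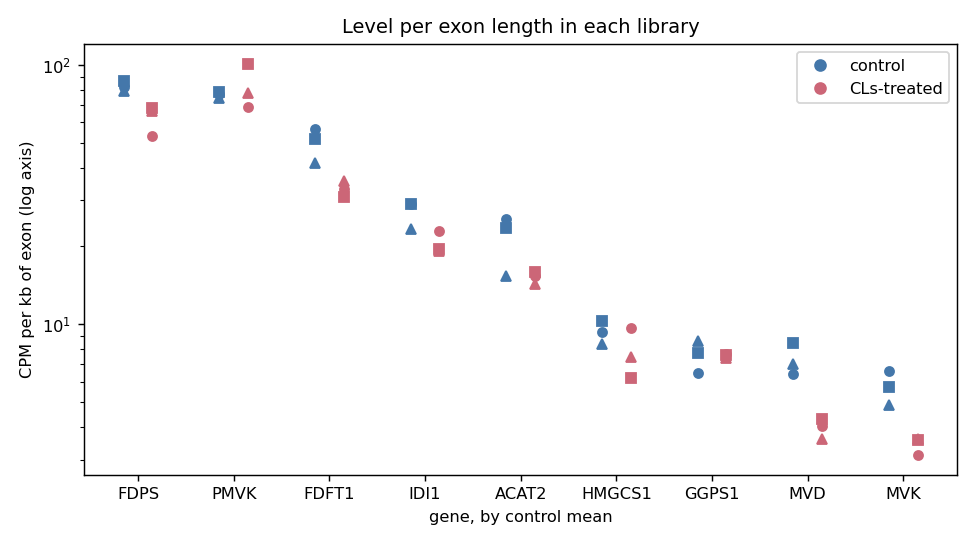
The y axis (log scale) gives CPM per kb of exon in each control (blue) and CLs-treated (red) library, with the genes ordered by control mean and marker shapes for replicates 1 (circle), 2 (square) and 3 (triangle). The order of FDPS and PMVK is exchanged between the groups, and GGPS1 and MVD, close in the control libraries, are apart in the treated ones.

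Some reads could have been shared with other genes. In GENCODE 29, ACAT2 shares exon bases with TCP1 and SOD2, MVK with MMAB, IDI1 with IDI2-AS1, FDPS with RUSC1-AS1 and GGPS1 with ARID4B, each on the opposite strand. ACAT2, HMGCS1 and FDFT1 also share some with noncoding genes that were not analysed here. For ACAT2 this is SOD2-OT1, which covers 33.9% of its exon bases and has no row in the count table. The strand setting of the counting is not given in the sources used here, so reads of such pairs cannot be told apart in the shared bases. SOD2, the mitochondrial superoxide dismutase gene, which covers 26.5% of the exon bases of ACAT2, had a log2 fold change of 0.02 (SE 0.19) and overlapped between the groups. TCP1, a chaperonin subunit, had a log2 fold change of 0.12 (SE 0.17), and the count ratio of ACAT2 to TCP1 was 0.340, 0.361 and 0.282 in the control libraries and 0.181, 0.253 and 0.226 in the CLs-treated libraries. MMAB, a cobalamin enzyme gene that lies head to head with MVK, had a CPM of 47.8, 45.6 and 47.9 in the control libraries and 30.0, 42.0 and 40.7 in the CLs-treated libraries. All treated values of MMAB were lower, with a log2 fold change of -0.33 (SE 0.16, edgeR adjusted p = 0.869). The ratio of MVK to MMAB overlapped between the groups. Over all 13 genes listed as neighbours of members, 10 had enough reads to be tested and 0 were called by edgeR, 0 had an unadjusted p under 0.05, and their median log2 fold change was 0.09. FDPS has 10 pseudogene rows, whose reads summed to between 5.89% and 7.25% of those of FDPS. With these reads added to FDPS its log2 fold change was again -0.40.

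The neighbouring branches of the pathway were read from lists of 12, 10, 6 and 7 genes. Of 12 enzymes from squalene to cholesterol, all tested, 11 had a log2 fold change below 0, the median was -0.53 and 0 were called by edgeR. At an unadjusted p under 0.05, 8 of the 12 were lower, against 3.62% of all genes tested. With DESeq2 3 passed, against 0.645% of genes with an adjusted p-value called lower. SQLE, the epoxidase that takes up squalene, had a CPM of 112.0, 100.1 and 74.1 in the control libraries and 67.0, 45.5 and 60.1 in the CLs-treated libraries, with a log2 fold change of -0.73 (SE 0.19, edgeR adjusted p = 0.286). The libraries of SQLE did not overlap, and Control-3 was again the lowest control. Other enzymes of this list with an unadjusted p under 0.01 included LSS, TM7SF2 and DHCR7, with log2 fold changes of -0.66, -0.97 and -0.83. LSS, TM7SF2 and DHCR7, and below also INSIG1 and ACSS2, were listed by the study on these samples.

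Of the 10 genes of the isoprenoid branches, which cover protein prenyltransferases, dolichol synthesis and the ubiquinone side chain, 0 were called by edgeR or DESeq2 and 0 had an unadjusted p under 0.05. Their log2 fold changes ranged from -0.12 to 0.29, with a median of 0.13. GGPS1, at -0.01, lay within this range. The difference between this list and the sterol enzymes was not tested.

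Of 6 genes for acetyl-CoA supply and homologs of members, 4 had enough reads to be tested. At an unadjusted p under 0.05, 3 were lower, against 3.62% of all genes tested. By edgeR 0 were called, and by DESeq2 1, against 0.645% of genes with an adjusted p-value called lower. ACLY, the citrate lyase that supplies cytosolic acetyl-CoA, had a log2 fold change of -0.51 (SE 0.14, edgeR adjusted p = 0.320). ACSS2, the cytosolic acetyl-CoA synthetase, had a CPM of 22.5, 27.1 and 31.4 in the control libraries and 12.7, 12.8 and 15.9 in the CLs-treated libraries, a log2 fold change of -0.97 (SE 0.18, edgeR adjusted p = 0.0974). The CLs-treated libraries of both genes lay below the controls. The mitochondrial thiolase ACAT1 had a log2 fold change of 0.20 (SE 0.12), opposite in sign to its cytosolic counterpart ACAT2, and all its treated libraries lay above the controls. IDI2, the homolog of IDI1, had 0 counts in every library.

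Of 7 genes for SREBP processing, 0 were called by edgeR. At an unadjusted p under 0.05, 1 was lower, against 3.62% of all genes tested. This was INSIG1, an endoplasmic reticulum protein that retains SREBP and is itself a known SREBP target. The CPM of INSIG1 was 52.1, 54.4 and 70.6 in the control libraries and 41.1, 31.0 and 26.4 in the CLs-treated libraries. In INSIG1, unlike in most members, Control-3 was the highest control. The transcription factor genes themselves overlapped between the groups. SREBF2 had a log2 fold change of -0.30 (SE 0.17), and SREBF1 one of -0.18 (SE 0.28). SREBF1 had 98.3, 154.9 and 264.3 CPM in the control libraries, with Control-3 the highest, and between 134.7 and 165.2 in the CLs-treated libraries, and without Control-3 its log2 fold change was 0.27. RNA levels do not measure the processing of SREBP.

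**Figure D5:**
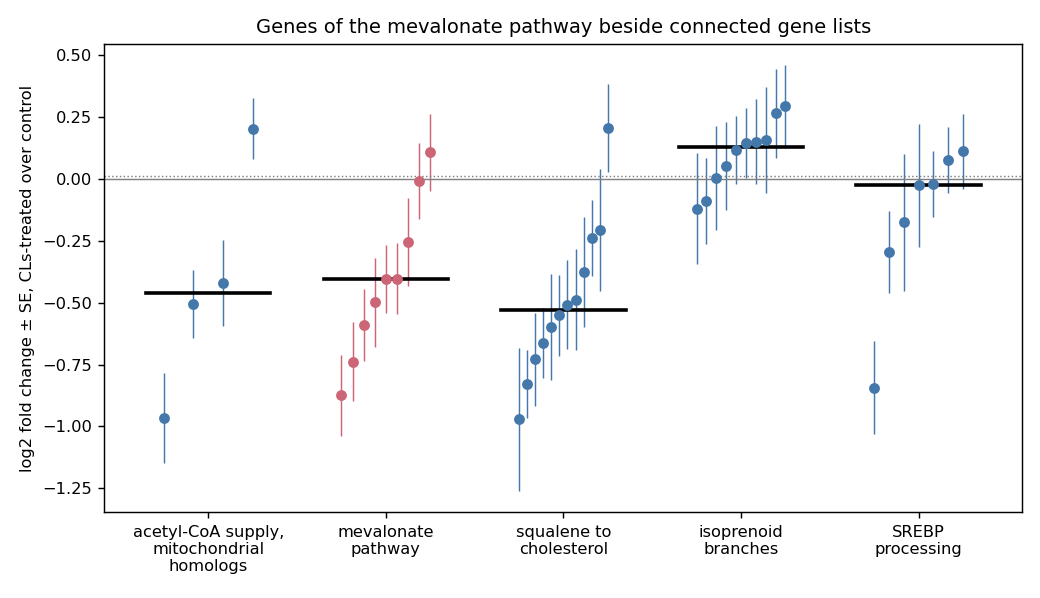
Points give the log2 fold change of each tested gene with its standard error, for the 9 mevalonate pathway genes (red) and 4 connected lists (blue). Thick bars mark list medians and the dotted line the median of all genes tested. The medians of the mevalonate and post-squalene lists are -0.40 and -0.53, and that of the isoprenoid branches is 0.13.

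The genes most like the members were sought by the root mean square distance, over the 6 libraries, between a gene's centred log2 CPM and the mean centred profile of the 9 members. Among 9887 other genes with a mean of at least 10 CPM, the 10 nearest were URB1, TRIM11, TNFAIP1, RIMKLBP1, NDST1, MYO1C, ALDH5A1, SH3BP4, ST13P18 and ARHGEF18, at distances from 0.0480 to 0.0713. None of them belongs to the lists above, and RIMKLBP1 and ST13P18 are pseudogenes. URB1, the nearest, had a CPM of 158.3, 178.6 and 154.5 in the control libraries and 126.6, 125.8 and 120.7 in the CLs-treated libraries. Their log2 fold changes lay between -0.47 and -0.33. The members themselves lay between 0.0933 (IDI1) and 0.295 (PMVK) from their own mean profile, each farther from it than these 10 genes. The 10 were picked as the nearest of 9887, so their smaller distances reflect that choice. All distances share the same 6 libraries and their depth.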

How the data were processed

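The authors sequenced single-end Ion Proton libraries of 3 control and 3 CLs-treated samples, mapped the reads with MapSplice and deposited whole-number counts per gene symbol, without normalization. The submitters' processing notes name HTSeq 0.6.1 and the builds hg19 and GRCh37. The strand setting, the annotation and the treatment of reads with several matches are not given in the sources used here. Shared or antisense reads could therefore shift single genes.

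Groups were taken from the sample labels. All 6 columns were used. The comparison was made in edgeR 4.0.16 (R 4.3.3). Low counts were removed with filterByExpr, which left 15047 genes, scaling was by TMM, and the quasi-likelihood fit had the group as its single term. The study used EBSeq with the same fold and FDR criteria. Standard errors and 95% intervals were derived from the F statistic. CPM are relative to the TMM-scaled total of the tested genes, except for markers. Floors of 3 counts cover counting error only. The script was tested on simulated data. DESeq2 1.42.0, other scalings and filters, a replicate block, FDPS with pseudogene reads added, no fold criterion and leaving out samples singly were alternatives.

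The 9 members and the gene lists were chosen with earlier results of these data known, so no p-value over a list is given. Genes named outside the 9 had an unadjusted p under 0.01 in their list, or were INSIG1, SREBF1, SREBF2, neighbours of members, pseudogenes of members or the 10 nearest profiles. Some genes that meet this rule are not reported here. Cell type markers are named as checks of the label. ACAT1, IDI2 and SOD2 are named outside it, as homologs and an overlapping gene chosen after their values were seen. No coordinates are given for the count table, and the RefSeq windows are on another build than the mapping.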

Additional observations from a re-analysis of the deposited data

How the results depend on the processing

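Under the 15 alternatives, including samples left out, the log2 fold changes of ACAT2, HMGCS1, MVK, MVD, IDI1, FDPS and FDFT1 stayed below 0. That of GGPS1 was 0.014 with library size only, and ranged from -0.113 to 0.0902 when each sample was left out. That of PMVK was -0.065 without CLs-2 and at most 0.222 when each sample was left out. The causes were not tested. The number of members called lower was 3 with DESeq2, both on all genes with a read and on the 15047 genes of the edgeR fit (an alternative chosen after seeing the data), 2 when every gene with a read was tested and 1 in the fit with a replicate block, and 0 under the other alternatives. Of the post-squalene enzymes 3, 3 and 1 were called with DESeq2 (on either gene set), with every gene and with the block, and of the acetyl-CoA genes 1, 1 and 1. Of the SREBP processing genes 1 was called with DESeq2 on either set and 1 with every gene tested. Over all genes, 90 were called lower and 15 higher with DESeq2 (91 and 16 on the genes of the edgeR fit). With every gene that had a read tested, 113 and 58 of 25432 were called. With the block 56 and 12 of 15047 were called, and with library size only 6 were lower. Leaving out each sample gave 2 to 6 genes lower and 1 to 3 higher, and 0 members called. It moved the median log2 fold change of the members between -0.501 and -0.359, of the post-squalene enzymes between -0.671 and -0.448, of the isoprenoid branches between 0.0235 and 0.178, of the acetyl-CoA genes between -0.556 and -0.391, and of the SREBP processing genes between -0.226 and 0.0499.

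The replicate numbers were not taken as pairs. The deviations from the group means correlated across genes at 0.111, 0.0987 and 0.305 for samples numbered 1, 2 and 3. Each sample correlated best with its own number, but Control-2 with CLs-1 was at 0.0784, close to the first 2 values. Deviations cancel out within a group, so these correlations are tied together and do not show pairing. The design does not state it either. With the block, MVD was the member called, at an adjusted p of 0.0274 in edgeR. The standard errors of the 9 members lay between 0.138 (FDPS) and 0.181 (ACAT2).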
